A study of Mus musculus with 2 samples.

Results

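The S100 calcium-binding protein genes described here are S100a8, S100a9, S100a4, S100a6, S100a10 and S100a11. They were taken by gene symbol from the count tables, where they make up 6 of 17 S100 genes and 6 of 31053 gene entries. Single-cell 3′ RNA libraries had been made from monocytes and macrophages of mouse skin wounds, taken on day 6 after injury. One group was non-diabetic and the other diabetic, and each was a single library of enzymatically digested wound cells pooled from 2 mice. The labels name neither the strains nor the model of diabetes, so strain and diabetes cannot be told apart. With 1 library a group there is no replicate error, no difference below was tested, and all intervals are 95% and cover the counting of unique molecular identifiers (UMIs) only, not the variation between cells or mice.

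S100 proteins are small EF-hand proteins that bind calcium and, for most members, work as dimers. S100A8 and S100A9 pair as calprotectin, a main cytosolic protein of neutrophils and of newly recruited monocytes that can be released and can signal through Toll-like receptor 4. S100A4 and S100A6 bind cytoskeletal and scaffold proteins inside the cell, while S100A10 and S100A11 bind annexins at membranes. In a skin wound, S100A8 and S100A9 are also known from activated keratinocytes.

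All members lie on chromosome 3 of mm10. S100a8 occupies bases 90668978 to 90670035 on the plus strand, and S100a9 bases 90692632 to 90695721 on the minus strand, 22.6 kb away. S100a4 spans 90603771 to 90606045, S100a6 spans 90612882 to 90624181, S100a11 spans 93520488 to 93526287 and S100a10 spans 93555080 to 93564643, all on the plus strand. The annotated gene Gm42674 overlaps S100a4 on the same strand and was counted at 0 UMIs in both libraries. The S100a11 transcript is near-identical to Gm12854 (98.99% over 297 bases) and Gm7665 (98.65%), which the count table does not list, and the overlap of S100a4 with Gm42674 is identical in sequence over 302 bases, so the counts of S100a4 and S100a11 are uncertain.

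The S100a8 and S100a9 promoters are shown because both transcripts were higher in the diabetic library yet separated between cells. The windows run from 250 bases before to 50 after the RefSeq start (GRCm38.p6), written 5′ to 3′ on the gene's strand, at chr3:90668821-90669120 (plus) for S100a8 and chr3:90695672-90695971 (minus) for S100a9. Capitals mark matches on either strand to GAGGAA, the core bound by PU.1 (read as TTCCTC on the other strand), and to TTGCNNAA, a C/EBP sequence.
S100a8: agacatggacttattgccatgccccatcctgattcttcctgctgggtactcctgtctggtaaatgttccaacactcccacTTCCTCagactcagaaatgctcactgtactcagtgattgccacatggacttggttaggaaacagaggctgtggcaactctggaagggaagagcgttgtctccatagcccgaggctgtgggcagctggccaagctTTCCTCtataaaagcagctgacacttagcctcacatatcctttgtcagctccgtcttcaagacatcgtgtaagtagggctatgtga
S100a9: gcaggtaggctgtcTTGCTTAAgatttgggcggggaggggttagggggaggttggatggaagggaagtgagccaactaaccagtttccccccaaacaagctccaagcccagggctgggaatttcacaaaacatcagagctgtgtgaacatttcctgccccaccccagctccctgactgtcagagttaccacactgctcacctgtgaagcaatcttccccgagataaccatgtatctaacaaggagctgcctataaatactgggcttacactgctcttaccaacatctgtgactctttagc
The S100a8 window holds 2 matches to GAGGAA and none to TTGCNNAA, whereas the S100a9 window holds 1 match to TTGCNNAA and none to GAGGAA. Neither window matches TGANTCA (AP-1) or the NF-kB motif searched (GGG, any 5 bases, then CC). Of 32851 promoter windows of the same length, 28.3% hold GAGGAA, 10.8% TTGCNNAA, 7.81% TGANTCA and 50.8% the NF-kB motif. A match is a run of letters, not a measured binding site.

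A cell was kept if it had 500 or more genes and less than 10% of its UMIs from mitochondrial genes, which left 1123 of 2026 non-diabetic barcodes (15429273 UMIs, median 14079 a cell) and 1755 of 2214 diabetic barcodes (30435047 UMIs, median 16314). The libraries shared 6 barcode sequences, 1 of them among kept cells. Clustering without any S100 gene gave 16 clusters, of which 11 drew over 90% of their cells from 1 library, so cluster and library are largely confounded. Clusters are named by cell type where marker genes allowed it, as classical monocyte-like, macrophage-like (the Gas6-led and Cd163-led clusters), conventional dendritic cell-like or neutrophil-like, and otherwise by a leading gene. The monocyte-like cluster had 5 of 10 monocyte markers, the Gas6-led and Cd163-led clusters each 9 of 12 macrophage markers, and the neutrophil-like cluster 8 of 10 neutrophil markers, so the wound cells were not all monocytes and macrophages.

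S100a8 and S100a9, the calprotectin pair, were the members that differed most between the libraries. S100a8 stood at 164 CPM (UMIs scaled to a common library total, with the interval 158 to 171) in the non-diabetic and 3917 CPM (3895 to 3939) in the diabetic library, a 23.8-fold difference (22.9 to 24.8). It ranked 857th by UMIs in the former and 21st in the latter. S100a9 stood at 27.8 CPM (25.2 to 30.6) and 410 CPM (403 to 417), a 14.8-fold difference (13.4 to 16.3). By the fold of 1.5 used here as a call, 2 of 6 members were higher in the diabetic library, where 18.7% of 12337 measured genes were (genes with 20 or more UMIs summed over the libraries count as measured).

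The other 4 members were abundant in both libraries and differed little. S100a4 was at 2233 CPM non-diabetic and 2139 CPM diabetic, a log2 ratio of -0.06 (-0.08 to -0.04). S100a6 was at 3527 and 3318 CPM, a log2 ratio of -0.09 (-0.10 to -0.07), and ranked 26th in both. S100a10, the annexin A2 partner, was at 1401 and 1109 CPM, 1.26-fold lower in the diabetic library (1.24 to 1.28). S100a11 was at 1748 and 1211 CPM, 1.44-fold lower (1.42 to 1.47). None of the 6 was called lower, against 12.9% of all measured genes. Over all measured genes the log2 ratio had a median of 0.12, and TMM scaling, which moved it to 0.01, lowered each log2 ratio by 0.11 and left S100a11 as 1 member called lower. Under TMM the split of all genes was 14.6% higher and 15.7% lower.

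How many cells carried each transcript followed the same split. Before any correction for depth, 279 of 1123 non-diabetic cells (24.8%) and 1333 of 1755 diabetic cells (76.0%) had an S100a8 UMI, and 77 (6.86%) and 400 (22.8%) had an S100a9 UMI. After thinning each cell to 2000 UMIs, which left out 37 non-diabetic and 25 diabetic cells, S100a8 was found in 8.93% (7.30% to 10.8%) of non-diabetic and 43.2% (40.8% to 45.6%) of diabetic cells. S100a9 was found in 1.20% (0.639% to 2.04%) and 6.47% (5.36% to 7.74%). S100a6 was found in 96.1% and 96.0% of thinned cells and S100a4 in 87.9% and 85.1%. S100a10 was found in 84.9% (82.6% to 87.0%) and 75.3% (73.2% to 77.3%), and S100a11 in 85.4% and 81.6%.

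The pair was also far less evenly spread among cells than the other members. In the diabetic library the 1% of cells with most S100a9 held 83.0% of its UMIs, and 6 cells held 50% of them. The same 1% share was 23.2% for S100a8, where 58 cells held 50%. In the non-diabetic library the 1% shares were 66.3% for S100a8 and 78.6% for S100a9. For S100a4, S100a6, S100a10 and S100a11 they lay between 4.30% and 9.38% in both libraries.

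S100a8 was concentrated in the Stfa3-led cluster, of 302 diabetic cells and 1 non-diabetic cell. Its leading genes were Orm1, Stfa3, Fst, Lcn2 and Il12a. Here S100a8 reached 17618 CPM (17510 to 17727), was found in 301 of 302 cells with a median of 191.5 UMIs a cell, and made up 85.3% of all diabetic S100a8 UMIs. The next diabetic levels were 1728 CPM in the Itgb8-led, 1035 in the P2rx1-led, 862 in the monocyte-like and 582 in the Cd163-led cluster. These neighbours in the order did not overlap in their intervals. Below them the Lpl-led cluster was at 410 CPM, the Cd79b-led at 316, the Gas6-led at 311 (the last pair overlapping), the Dusp2-led at 184 and the Slc9b2-led at 63.8. Without the cell with most S100a8 UMIs in each, these levels were 311.4, 210.5, 156.7, 163.5 and 58.54 CPM in the same sequence. The neutrophil-like cluster, with 19 diabetic cells, stood above all other diabetic clusters at 23210 CPM (22567 to 23866), but with 4.14% of the diabetic S100a8 UMIs.

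In the non-diabetic library S100a8 was highest in the Inhba-led cluster, at 418 CPM (398 to 439) in 331 cells, which held 64.8% of that library's S100a8 UMIs. The Ifit1bl1-led cluster, which carries interferon-response genes, followed at 195 CPM and the monocyte-like cluster at 189 CPM, with overlapping intervals. The Mpp7-led cluster was at 48.2 CPM, the Gas6-led at 31.0 and the Lpl-led at 17.7. A few cells carried much of these sums. Among 331 Inhba-led cells, 4 held 1036 of 1643 S100a8 UMIs. Among 80 Ifit1bl1-led cells, 1 held 110 of 203 S100a8 UMIs, and among 177 monocyte-like cells, 1 held 313 of 496.

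**Figure D1:**
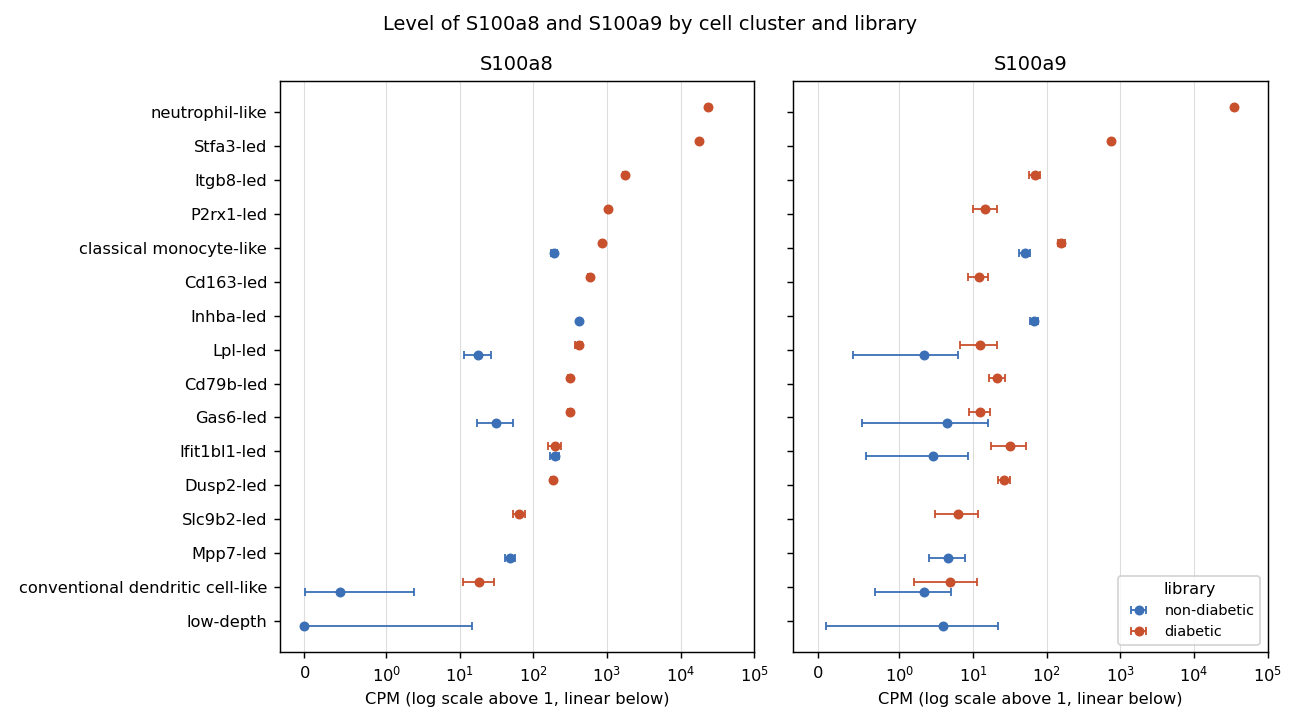
CPM of S100a8 (left) and S100a9 (right) in each cluster with at least 15 cells of a library, summed over its cells, with the 95% counting interval, on a scale that is logarithmic above 1 and linear below. S100a8 was at 17618 CPM in the Stfa3-led and 23210 CPM in the neutrophil-like cluster, whereas S100a9 was at 756 and 34446 CPM.

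Dendritic cell-like cells, in which little calprotectin is made, served as the background. S100a8 had 1 UMI in 115 non-diabetic cells (0.44 CPM, 0.01 to 2.43) and 19 UMIs in 57 diabetic cells (18.4 CPM, 11.1 to 28.8). After thinning, 1 of 114 (0.877%) and 2 of 56 (3.57%, 0.435% to 12.3%) such cells had a UMI, at full-depth medians of 20158 and 18905 UMIs. The lowest thinned shares among the other diabetic clusters were 13.3% (5.05% to 26.8%) in the Slc9b2-led, at a median of 28560 UMIs, and 17.9% (12.9% to 23.8%) in the Cd79b-led cluster, at 14857. The Slc9b2-led share overlapped the background interval and the Cd79b-led share did not. For S100a9 the thinned share in dendritic cell-like cells was 0 of 114 and 0 of 56, which allows up to 2.63% and 5.36%. The thinned S100a9 shares of the Gas6-led (2.09%), P2rx1-led (2.63%), Itgb8-led (2.99%), Cd79b-led (3.86%), Dusp2-led (4.11%), Cd163-led (5.13%) and Slc9b2-led (2.22%) diabetic clusters lay under that limit and are not read as expression. The limit of 5.36% rests on 56 cells. At full depth S100a9 was at 4.855 CPM (1.58 to 11.3) in diabetic dendritic cell-like cells. The Dusp2-led cells, at 26.2 CPM (21.7 to 31.4), and Cd79b-led cells, at 21.1 CPM (16.3 to 26.95), lay above that interval. Those of the Gas6-led, P2rx1-led, Cd163-led and Slc9b2-led cells overlapped it. Itgb8-led cells were at 69.4 CPM, and at 13.6 CPM without 1 cell. The part of free RNA in these levels was not tested.

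S100a9, like S100a8, was highest in the neutrophil-like cluster, but the gap to the Stfa3-led cluster was far wider. The neutrophil-like cells were at 34446 CPM (33661 to 35244), and these 19 cells held 58.7% of all diabetic S100a9 UMIs. The Stfa3-led cluster came next at 756 CPM (734 to 779), with 35.0% of them, and 1 of its cells held 1024 of its 4364 S100a9 UMIs. The diabetic monocyte-like cells were at 158 CPM (141 to 177), the Itgb8-led at 69.4 and the non-diabetic Inhba-led at 68.2, the last pair overlapping, and the non-diabetic monocyte-like cells at 50.4. This order rests on few cells, since 1 Itgb8-led cell held 107 of that cluster's 133 UMIs, 1 non-diabetic monocyte-like cell 127 of 132, and 4 Inhba-led cells 176 of 268. Without cells of at least 10 S100a9 UMIs, an alternative added after the data were seen, the levels were 34.6 CPM in the diabetic monocyte-like, 33.8 in the Stfa3-led, 23.7 in the Inhba-led, 22.5 in the Dusp2-led, 16.7 in the Cd79b-led, 13.6 in the Itgb8-led and 1.93 in the non-diabetic monocyte-like cells. Every other cluster of at least 30 cells was at 26.2 CPM or lower. In the order of these 19 sums of cluster and library, which leave out the neutrophil-like cluster for size, 14 of 18 neighbouring S100a9 levels overlapped, against 9 of 18 for S100a8.

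How S100a8 and S100a9 separate is clearest in their ratio, which within a library depends on neither scaling nor depth. In all diabetic cells there were 0.105 S100a9 UMIs per S100a8 UMI (0.103 to 0.107), and 0.169 (0.152 to 0.187) in all non-diabetic cells. The neutrophil-like cells had 1.48 (1.43 to 1.54), with more S100a9 than S100a8. The Stfa3-led cells had 0.0429 (0.0416 to 0.0442), or 23.3 S100a8 UMIs per S100a9 UMI. Other diabetic clusters fell on both sides of the latter, with 0.183 in the monocyte-like, 0.143 in the Dusp2-led, 0.0668 in the Cd79b-led, 0.0402 in the Itgb8-led, 0.0205 in the Cd163-led and 0.0142 (0.00956 to 0.0203) in the P2rx1-led cells. Counts per transcript are not calibrated between genes, so the ratios are compared between clusters and are not read as ratios of molecules or protein. The thinned S100a9 shares of the Dusp2-led, Cd79b-led, Itgb8-led, Cd163-led and P2rx1-led cells lay under the background limit. Their ratios are thus not read as differences in S100a9 expression. Few cells also move the ratios and their order. Without cells of at least 10 S100a9 UMIs the ratio was 0.124 in the Dusp2-led, 0.0792 in the Cd79b-led, 0.0857 in the non-diabetic Inhba-led, 0.0544 in the diabetic and 0.0273 in the non-diabetic monocyte-like, 0.00866 in the Itgb8-led and 0.00219 in the Stfa3-led cells, while the P2rx1-led and Cd163-led clusters had no such cell.

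**Figure D2:**
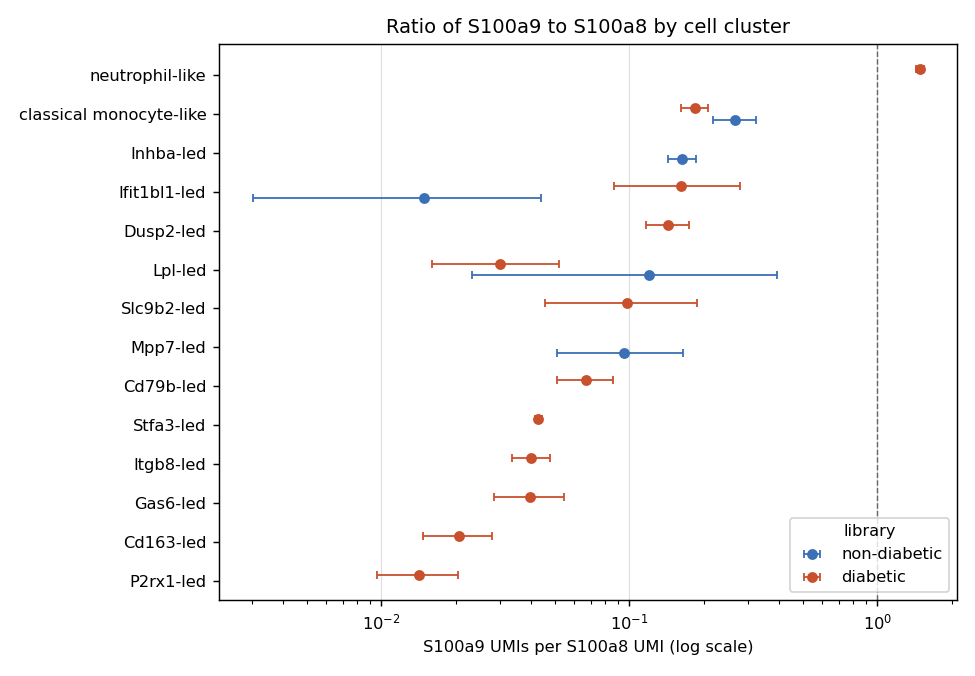
S100a9 UMIs per S100a8 UMI, on a log axis, in each cluster and library with at least 15 cells and 20 S100a8 UMIs, with the 95% counting interval. The dashed line marks equal counts. The neutrophil-like cells, at 1.48, lie to its right and all other clusters to its left, down to 0.0142 in the P2rx1-led cells. The thinned S100a9 share of the P2rx1-led cells lay under the background limit.

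Most S100a9 came from few cells. In the diabetic library 48 cells had at least 10 S100a9 UMIs, and these held 95.4% of the S100a9 UMIs (11908 of 12481) but 21.2% of the S100a8 UMIs. Of these cells 23 were Stfa3-led, 15 neutrophil-like and 5 monocyte-like. In the other 1707 diabetic cells there were 93980 S100a8 and 573 S100a9 UMIs, a ratio of 0.00610. In the non-diabetic library 5 cells had at least 10 S100a9 UMIs, 4 Inhba-led and 1 monocyte-like, and held 70.6% of the S100a9 UMIs.

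Many diabetic cells with much S100a8 had no S100a9 UMI, and most of these were Stfa3-led. Of 232 diabetic cells with at least 100 S100a8 UMIs, 121 had no S100a9 UMI, 73 had 1 to 9, and 38 had 10 or more. Among them were 197 Stfa3-led cells, of which 109 had no S100a9 UMI and 22 had 10 or more. Of the 35 in other diabetic clusters, 12 had none, 7 had 1 to 9 and 16 had 10 or more. The 5 P2rx1-led cells with at least 100 S100a8 UMIs held 1177 S100a8 and 2 S100a9 UMIs, and the 12 such neutrophil-like cells held 4747 and 6891. The non-diabetic library had 6 cells with at least 100 S100a8 UMIs, and all 6 had an S100a9 UMI, 3 of them 10 or more.

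**Figure D3:**
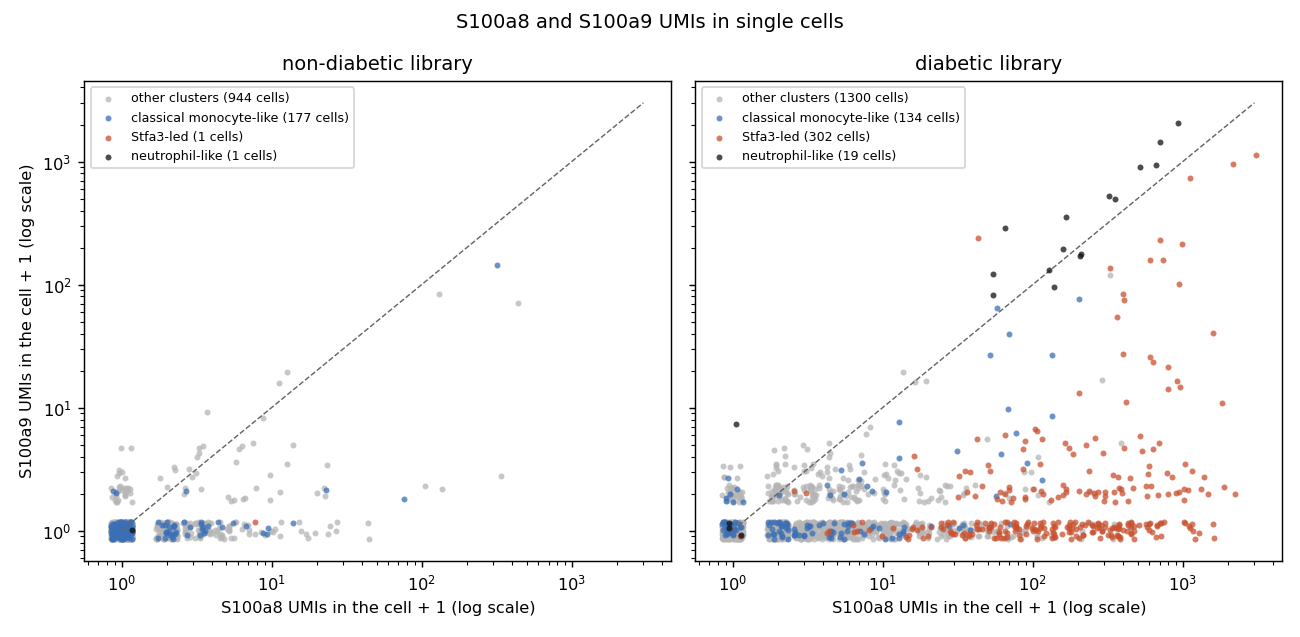
S100a8 UMIs (horizontal) against S100a9 UMIs (vertical) in each kept cell of the non-diabetic (left) and diabetic (right) library, both plus 1 on log axes, with a small random shift to part overlapping points and a dashed line of equal counts. Of the 19 diabetic neutrophil-like cells, 15 lie near the dashed line and 4, with no S100a8 UMI, at the left edge. Most of the 302 Stfa3-led cells lie along the bottom, with many S100a8 UMIs and 0 or few S100a9 UMIs.

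At equal depth the same pattern held in the diabetic cells. After thinning to 2000 UMIs, 4.86% of diabetic cells (3.89% to 5.98%) had both transcripts, 38.3% (36.0% to 40.7%) only S100a8 and 1.62% (1.08% to 2.33%) only S100a9. Among 297 Stfa3-led cells, 11.8% had both, 86.2% only S100a8 and 0 only S100a9, which allows up to 1.01%. Without thinning, at a median of 19358 UMIs, 38.7% of the 302 Stfa3-led cells had both and 60.9% only S100a8. The thinned share with only S100a8 thus includes cells whose S100a9 UMIs were lost by thinning. Among 17 neutrophil-like cells, 13 had both, 1 only S100a9 and none only S100a8. Of non-diabetic cells, 0.737% had both, 8.20% only S100a8 and 0.460% only S100a9. The unthinned shares for diabetic cells were 20.3%, 55.6% and 2.45%.

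The Stfa3-led cells were also split at 10 S100a9 UMIs, a threshold set after the values were seen. Of all 302 diabetic Stfa3-led cells 117 had an S100a9 UMI, so cells below the threshold also carried S100a9. The 23 cells with at least 10 S100a9 UMIs had 0.219 S100a9 UMIs per S100a8 UMI (0.211 to 0.226), while the other 279 had 82529 S100a8 and 181 S100a9 UMIs, a ratio of 0.00219 (0.00189 to 0.00254). Cell by cell, the ratio in the 23 ran from 0.0137 to 6.19, with a median of 0.156. The set was chosen on S100a9, so the S100a9 levels and ratios on both sides of the threshold are a description only. S100a8 was at 45604 CPM in the 23 cells and 15424 CPM in the 279. Lcn2, which encodes the iron-siderophore binding protein lipocalin 2, was at 5524 and 2225 CPM, and Stfa3, a stefin protease inhibitor, at 3386 and 1510 CPM. Depth was similar, with medians of 17300 and 19464 UMIs.

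Neutrophil markers were read beside this set. In the 23 cells 6 of 10 neutrophil markers were at 0, G0s2, Cxcr2 and Ly6g among them, and Retnlg was found in 4.35% of cells, at 64.3 CPM against 2.06 CPM in the 279. The list summed to 886 CPM in the 23 cells and 863 CPM in the 279, of which Mmp8 made 770 and 783 CPM. In the 15 neutrophil-like cells with at least 10 S100a9 UMIs the list summed to 10877 CPM, with Retnlg at 4112 and G0s2 at 3958 CPM. The other 4 diabetic neutrophil-like cells had 6 of 10 markers at 0, Retnlg and G0s2 among them, and a list sum of 242.5 CPM. Csf1r, the receptor that marks the monocyte lineage, was found in 91.3% of the 23 cells (217 CPM) and was at 340 CPM in the 279. In the 15 neutrophil-like cells Csf1r was found in 26.7% but was at 427 CPM. These shares were not thinned, and median depth was 4903 UMIs in the 15 and 17300 in the 23. Of 75 Csf1r UMIs in all 19 diabetic neutrophil-like cells, 66 were in the 2 cells with over 40000 UMIs. In the diabetic monocyte-like cluster 5 cells held 237 of 300 S100a9 UMIs, all 5 had a Csf1r UMI, and 5 of 10 neutrophil markers were at 0. The neutrophil list summed to 938 CPM in these 5 cells against 329 CPM in the 129 others of the cluster, with Retnlg, found in 1 of the 5, at 308 against 0.548 CPM and G0s2 at 53.6 against 1.10 CPM. The part of neutrophil RNA in their S100a9 was not tested.

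Of the 19 diabetic neutrophil-like cells, 2 had over 40000 UMIs (48066 and 64091) against a median of 4903, both with Csf1r, and doublet calling marked neither. They held 25.4% of the diabetic S100a9 UMIs, and doublets among them were not tested further. The 17 other cells had a ratio of 1.35 (1.29 to 1.42), with S100a8 at 30541 and S100a9 at 41291 CPM. With the whole neutrophil-like cluster left out, the S100a9 log2 ratio between libraries fell from 3.88 to 2.61 and the S100a8 ratio stayed within its interval. Without the Stfa3-led and the neutrophil-like clusters, an alternative added after the data were seen, the log2 ratios were 1.65 for S100a8 and 0.21 for S100a9. Of the 6 members 1, S100a8, was then called higher. The shares of cells in these clusters cannot be told apart from a difference between the 2 single libraries.

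Within clusters that both libraries filled with at least 30 cells, S100a8 was higher in the diabetic cells of each. The Ifit1bl1-led cluster, with 28 diabetic cells, fell under that limit and showed no such difference. There S100a8 was at 195 CPM (169 to 224) in 80 non-diabetic and 196 CPM (158 to 240) in the diabetic cells. Without the cell with most S100a8 UMIs in each library these levels were 90.7 and 139 CPM. In the monocyte-like cluster S100a8 was at 189 CPM in 177 non-diabetic and 862 CPM in 134 diabetic cells, a 4.55-fold difference (4.11 to 5.04). Leaving aside cells with at least 10 S100a9 UMIs, 176 non-diabetic cells held 183 and 129 diabetic cells 1158 S100a8 UMIs, a 9.01-fold difference (7.70 to 10.6). In the Gas6-led cluster it was at 31.0 and 311 CPM, 10.0-fold higher (5.94 to 18.4), and in the Lpl-led cluster at 17.7 and 410 CPM, 23.1-fold higher (15.5 to 36.2). In the Gas6-led cluster 1 diabetic cell held 513 of 1028 S100a8 UMIs, and without the top cell of each library the difference was 6.29-fold (3.49 to 12.7), against 20.7-fold (13.3 to 33.9) in the Lpl-led cluster. In the dendritic cell-like cluster the ratio was 42.4 (6.74 to 1761), on 1 non-diabetic UMI. The dendritic cell-like background was thus itself higher in the diabetic library, at 18.4 against 0.44 CPM, and the part of free RNA in these differences was not tested.

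S100a9 within these clusters rested on few UMIs outside the monocyte-like cells, where it was at 50.4 and 158 CPM, 3.13-fold higher (2.55 to 3.88). There 1 non-diabetic cell held 127 of 132 S100a9 UMIs, and 5 diabetic cells held 237 of 300. Without these cells of at least 10 S100a9 UMIs, 5 UMIs in 176 and 63 in 129 cells gave a 17.9-fold difference (7.29 to 57.2). The cells were left out by their S100a9 count, so this value is a description only. In the Gas6-led cluster 2 and 41 UMIs gave a ratio of 2.80 (0.726 to 23.9). In the Lpl-led cluster 3 and 13 UMIs gave 5.82 (1.60 to 31.8), and in the dendritic cell-like cluster 5 and 5 UMIs gave 2.23 (0.513 to 9.69). In the Gas6-led and dendritic cell-like clusters the interval held 1, so no difference was detectable at this depth.

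By the fold of 1.5, members called higher within clusters were S100a8 and S100a9 in the monocyte-like cluster (2 of 6 members, 10.0% of all measured genes) and in the Gas6-led cluster (2 of 6, 12.7%), where S100a9 passed by its ratio alone, on 2 and 41 UMIs with an interval that held 1. S100a8 was the only one in the dendritic cell-like (1 of 5 members measured, 9.70%) and Lpl-led clusters (1 of 5, 20.8%). Called lower were none in the monocyte-like (background 13.1%), Gas6-led (21.1%) and dendritic cell-like (17.0%) clusters. In the Lpl-led cluster S100a10 was (1 of 5, background 15.9%).

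**Figure D4:**
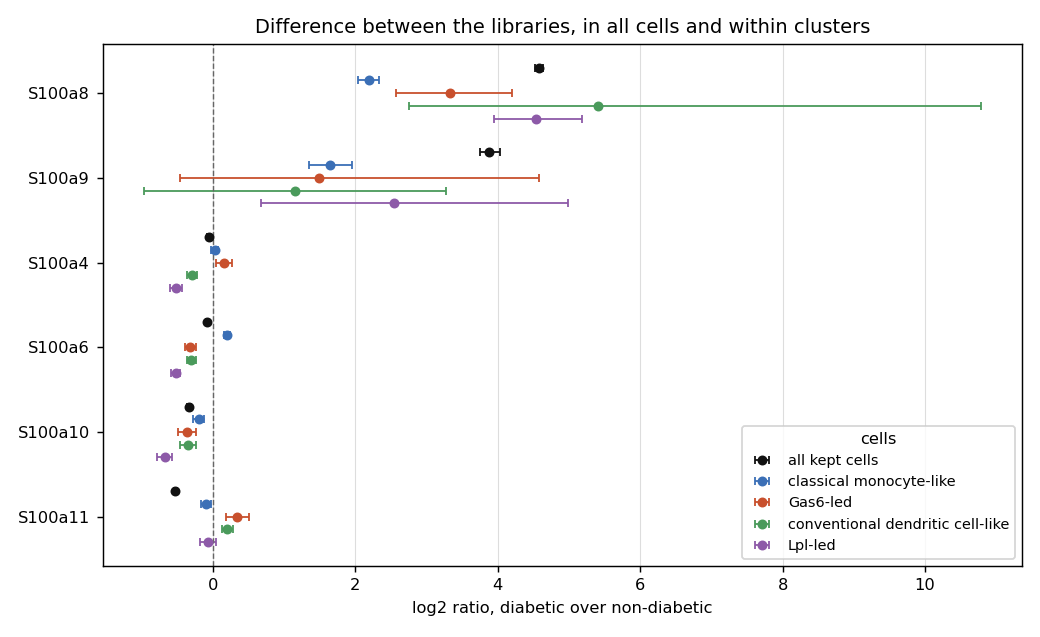
Log2 ratio of the diabetic over the non-diabetic library for each member, in all kept cells and within the 4 clusters with at least 30 cells of both libraries, with the 95% counting interval. S100a8 lies right of 0 in all 5 sets of cells, from 2.19 in the monocyte-like to 5.41 in the dendritic cell-like cells, and the other 4 members besides S100a9 lie between -0.68 and 0.34.

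S100a10 was the member lower in the diabetic cells of all 4 clusters. Its ratio was 0.871 (0.825 to 0.920) in the monocyte-like, 0.777 (0.711 to 0.851) in the Gas6-led, 0.783 (0.723 to 0.849) in the dendritic cell-like and 0.624 (0.581 to 0.671) in the Lpl-led cluster. S100a6 was higher in the diabetic monocyte-like cells, at 3976 against 3459 CPM (1.15-fold, 1.11 to 1.19), and lower in the other 3 clusters, at ratios of 0.802, 0.811 and 0.695. S100a4 was at 2903 and 2959 CPM in the monocyte-like cells, where the interval of the ratio (0.984 to 1.05) held 1. It was at 2892 and 2354 CPM in the dendritic cell-like and 2500 and 1743 CPM in the Lpl-led cells. S100a11 was 1.44-fold lower over all cells but ran from 0.936 in the monocyte-like to 1.27 in the Gas6-led cells.

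Stromal markers moved with part of these ratios. A list of 7 fibroblast markers, none at 0, summed to 8093 CPM in the non-diabetic Gas6-led cells, and a list of 6 endothelial markers, none at 0, to 883 CPM in the diabetic Lpl-led cells, while both stayed under 100 CPM in all other sums. With stromal cells left out, 1 non-diabetic and 7 diabetic cells in the Gas6-led cluster, the S100a4 ratio there moved from 1.11 to 1.04 (0.958 to 1.13) and the S100a11 ratio from 1.27 to 1.54 (1.34 to 1.77). Leaving out 3 cells of each library in the Lpl-led cluster moved S100a4 from 0.697 to 0.881, S100a6 from 0.695 to 0.771 and S100a10 from 0.624 to 0.630. This alternative was added after the data were seen.

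Across clusters, the intracellular members S100a4 and S100a6 peaked in different cells. S100a4 was highest in the Slc9b2-led cells, at 5336 CPM (5224 to 5451). These 46 diabetic cells had Ctsk and Atp6v0d2, genes of bone- and matrix-resorbing cells, among their leading genes and 7 of 7 cycling markers at 2-fold or more over other cells. The P2rx1-led cells came next at 3817 CPM, then the monocyte-like cells at 2959 (diabetic) and 2903 CPM (non-diabetic), which overlapped. The lowest levels were 1287 CPM in the Stfa3-led, 743 in the low-depth and 555 CPM in the neutrophil-like cells. S100a6 was highest in the P2rx1-led cells, at 5632 CPM (5529 to 5736), followed by the non-diabetic Inhba-led cells at 4424, and lowest at 2500 CPM in the diabetic dendritic cell-like cells, the low-depth cluster (1359) aside.

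The annexin-binding members differed as well. S100a10 was highest in the P2rx1-led (2112 CPM) and Slc9b2-led cells (2055), which overlapped, then in the non-diabetic Inhba-led cells (1795). The low-depth cluster (271) aside, it was lowest in the Cd79b-led cells (667) and, outside the 19 sums, the neutrophil-like cells (409). S100a11 was highest in the Itgb8-led cells, at 2336 CPM (2268 to 2405), and the diabetic dendritic cell-like (2069), non-diabetic Mpp7-led (2062) and Inhba-led cells (2039) followed with overlapping intervals. The low-depth cluster (538) aside, it was lowest in the Slc9b2-led cells, at 603 CPM (565 to 642), where S100a4 was highest. From lowest to highest the levels spanned 4.15-fold for S100a4, 2.25-fold for S100a6, 3.17-fold for S100a10 and 3.88-fold for S100a11, the low-depth cluster left out, against 356-fold for S100a9.

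**Figure D5:**
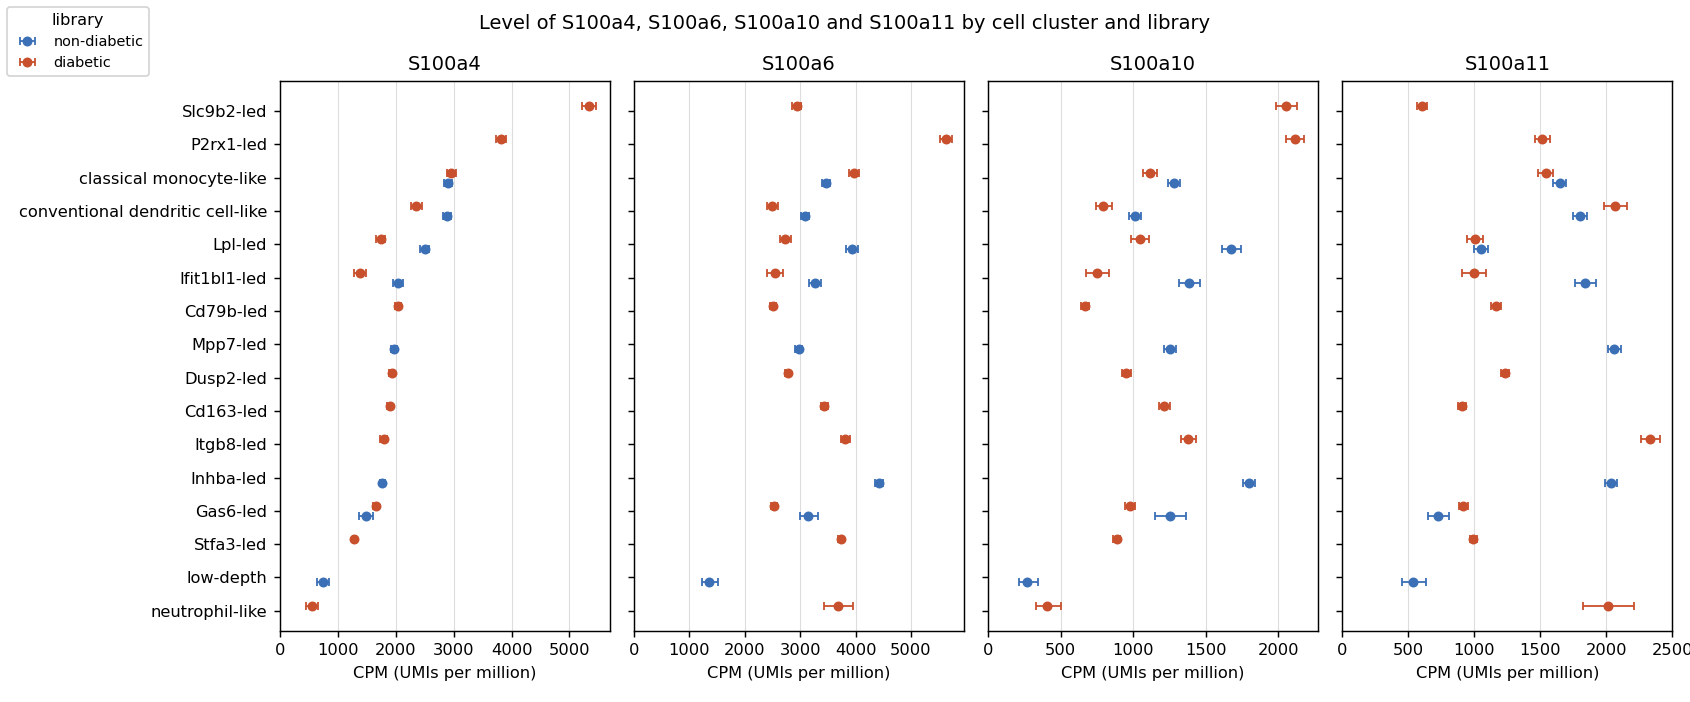
CPM of S100a4, S100a6, S100a10 and S100a11 in each cluster with at least 15 cells of a library, on linear axes from 0, with the 95% counting interval. The Slc9b2-led cells had the highest S100a4, at 5336 CPM, and among the lowest S100a11, at 603 CPM.

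Over the 19 sums, which share libraries and depth, the pattern of S100a8 was most like that of S100a9 among the members (Pearson r of log2(CPM + 5) 0.81), and that of S100a6 most like that of S100a10 (0.84). S100a8 and S100a4 had an r of 0.01. Among 4597 other genes considered, those most like S100a8 were Wfdc21 (0.86), Fpr2, a formyl peptide receptor, Glrx, Smpdl3b and Slc31a1, each highest in the Stfa3-led cells. Those most like S100a9 were Lcn2 (0.87), Mmp8, Ppp2cb, Il12a and Fst, again each highest there. No gene stood in both lists. S100a10 was most like Vim, which encodes vimentin (0.88), Cox6a1, Actr1a, Vapa and Ube2j2. S100a6 was most like Rhoa (0.85), Anxa11, Anxa7, Ywhaz and Rassf1, S100a4 most like Atp5d (0.86), Uqcrfs1, Sec11c, Nxt1 and Slc25a5, and S100a11 most like Cd53 (0.86), Ifitm3, Smim3, Emd and Cdc42se1.

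The genes around these proteins were read as lists, chosen with earlier results known, against an all-gene median log2 ratio of 0.12 and a background of 18.7% of measured genes called higher and 12.9% lower. Within the monocyte-like cluster the background was 10.0% and 13.1% with a median of -0.03. Of 10 receptor and signalling genes of S100A8 and S100A9, all measured, 2 were called higher and none lower, with a median of 0.10. Cd36 was at 125 and 232 CPM (1.85-fold higher), and Emb, a receptor for S100A9, at 416 and 643 CPM (1.55-fold). Under TMM scaling Emb was at 1.43-fold and under the call, and with DESeq2 size factors Cd14 was called lower (ratio 0.665). Tlr4 was at 39.1 and 32.6 CPM, and its co-receptor Cd14 at 2122 and 1535 CPM. Ager, the receptor for advanced glycation end products, had 10 and 20 UMIs. Within the monocyte-like cluster 9 were measured, 2 were called higher and 0 lower, with a median of 0.03. Emb and Cd33 were each 1.61-fold higher there, while Cd36 had 20 and 11 UMIs.

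Of 10 binding partners of S100A10, S100A11, S100A4 and S100A6, 0 were called higher and 3 lower, with a median of -0.23. Of all measured genes 18.7% were called higher and 12.9% lower. The 3 partners called lower were Anxa2, which forms a complex with S100A10, at 1450 and 867 CPM (ratio 0.598), the urokinase receptor Plaur at 443 and 221 CPM and urokinase itself, Plau, at 22.2 and 10.7 CPM (ratio 0.480). Anxa1 was at 416 and 354 CPM and Ahnak, a scaffold bound by S100A10, at 1314 and 1026 CPM. None of the 3 was called lower within the monocyte-like cluster, where Anxa2 had a ratio of 0.699 and Plaur of 1.07. Plau, with 9 and 15 UMIs, was called higher there by its ratio of 2.30 (0.942 to 5.96), and Cacybp, which encodes a partner of S100A6, lower (0.586), for a list median of 0.13. Of 9 transcription factor genes linked to the S100a8 and S100a9 promoters, 8 were measured. None was called higher and 2 lower, against 18.7% and 12.9% of all measured genes, with a median of -0.02. The 2 lower were Cebpe (10.9 and 4.53 CPM) and Atf3 (843 and 446 CPM). Within the monocyte-like cluster the same count of 0 and 2 held, with a median of -0.15, Atf3 at a ratio of 0.411 and Cebpe at 14 and 6 UMIs. Spi1, which encodes PU.1, was at 432 and 462 CPM, and Cebpb at 2498 and 2231 CPM.

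Among the other S100 family entries, 4 of 11 were measured and 1 was called higher, against 18.7% of all measured genes, with a median of 0.40. S100a16 had 14 and 106 UMIs, a 3.84-fold difference (2.19 to 7.26). It was at 89.5 CPM in the diabetic Lpl-led and 15.5 CPM in the non-diabetic Gas6-led cells, where the endothelial and fibroblast lists were high, and at 2.13 CPM or less in every other cluster of at least 30 cells. Without the 17 non-diabetic and 26 diabetic cells holding at least 5 UMIs of those lists, 6 and 12 UMIs were left and the difference was 1.02-fold (0.355 to 3.32). S100a1 was at 51.7 and 74.8 CPM (1.45-fold) and S100a13 at 216 and 241 CPM (1.11-fold). S100g and S100z had no UMI in kept cells of either library.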

How the data were processed

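The authors deposited a matrix of raw UMI counts per gene and barcode for each of the 2 libraries. They were made with Cell Ranger version 3.0.2, per the file headers, on mm10, per the submitters' processing notes. Members were matched by symbol, and the members, gene lists and rules were chosen with earlier results of these data known. Kept cells (filters in the text) were clustered jointly with scanpy version 1.11.5 and leidenalg version 0.10.2 on 2000 variable genes without S100 genes, 30 components, 15 neighbours and resolution 1, with no batch correction. Clusters needed at least 3 markers and 50% of a list, at 2-fold over other cells and in 10% of cells, for a cell type name. Scrublet marked 2 non-diabetic and 4 diabetic cells as doublets. So few marks show little, and those cells were left out in an alternative only. UMIs were summed per library or cluster. Intervals are exact Poisson for CPM, conditional exact binomial for ratios and Clopper-Pearson for shares, and a count of 0 allows 3 counts. Sums needed 30 cells for ordering, ratios and likeness. The text names all members, the 5 genes most like each at 50 CPM or more, and members of the fixed lists. Sets of cells above UMI thresholds, and single cells, were singled out after their values were seen. Positions came from GENCODE M21, near-identical transcripts from BLAST version 2.17.0, and promoters from RefSeq (5 of 6 members matched, S100a10 did not). Alternatives used edgeR version 4.0.16 and DESeq2 version 1.42.0 for scaling only. Barcodes outside the cell filter enter no comparison.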

Additional observations from a re-analysis of the deposited data

Results flagged for a closer look

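S100a4, S100a6 and S100a11 differed in direction between clusters under the same contrast, diabetic over non-diabetic, and the difference between clusters was not tested. For S100a6 the log2 ratio was 0.20 in the monocyte-like cluster but -0.32 in the Gas6-led, -0.30 in the dendritic cell-like and -0.52 in the Lpl-led cluster. For S100a4 it was 0.16 in the Gas6-led but -0.30 in the dendritic cell-like and -0.52 in the Lpl-led cluster. Without stromal cells the S100a4 value in the Gas6-led cluster was 0.06, with an interval of the ratio (0.958 to 1.13) that held 1. For S100a11 it was 0.34 in the Gas6-led and 0.20 in the dendritic cell-like but -0.10 in the monocyte-like cluster.

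Barcodes left out by the cell filter carried more S100a8 and S100a9 in the diabetic than in the non-diabetic library. In the 193 diabetic barcodes with under 500 genes S100a8 was at 574 CPM and S100a9 at 278 CPM, against 32.1 and 46.4 CPM in the 254 non-diabetic ones. In the 266 diabetic barcodes with at least 500 genes and 10% or more mitochondrial UMIs S100a8 was at 687 CPM and S100a9 at 53.9 CPM, against 56.2 and 38.9 CPM in the 649 non-diabetic ones. There were 0.485 S100a9 UMIs per S100a8 UMI (0.356 to 0.656) in the first diabetic set and 0.0784 (0.0588 to 0.103) in the other. The counting intervals did not overlap, but 2 barcodes of the first set held 32 of its 66 S100a9 UMIs.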

How the results depend on the processing

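S100a8 and S100a9 stayed higher in the diabetic library under every alternative run. The S100a8 log2 ratio (4.57) was 4.65 with all deposited barcodes, 4.46 with TMM, 4.45 with DESeq2 size factors, 4.45 as a mean of per-cell CPM, 4.44 after thinning, 4.38 without non-monocyte clusters, 2.12 without the Stfa3-led cluster, 1.65 without that and the neutrophil-like cluster, and 4.88 without cells of at least 10 S100a9 UMIs. The S100a9 log2 ratio (3.88) was 3.49 with the stricter cell filter, 4.61 as a mean of per-cell CPM, 4.43 after thinning, 2.61 without the neutrophil-like cluster, 3.56 without the Stfa3-led cluster, 2.49 without non-monocyte clusters, 0.21 without both clusters and 1.23 without cells of at least 10 S100a9 UMIs. Members called higher numbered 1, in place of 2, without both clusters, and members called lower 1, in place of 0, with TMM and with DESeq2 size factors (S100a11 each time). S100a4 and S100a6, near 0 throughout, changed sign to 0.037 and 0.0034 with all barcodes, and S100a4 to 0.065 without the Stfa3-led cluster and to 0.074 without both clusters. S100a8 in the leading diabetic cluster was at 17333 CPM at resolution 0.5 and 17387 CPM with doublets left out first. Shares of diabetic cells with both, only S100a8 or only S100a9 were 20.3%, 55.6% and 2.45% without thinning, 3.26%, 31.3% and 0.800% at 1000 UMIs, and 8.37% and 49.1% for the first pair at 5000 UMIs. Of 275 alternative values in all, 159 lay within the original interval or count. A further 112, not all given here, lay outside it without a change of sign, and 4 changed sign. The causes were not tested. Some of the 159 values could not move. The setting of genes with at least 1 UMI left the sums of the members as they were. Leaving out cells of at least 10 S100a9 UMIs removed none in some clusters, the Cd163-led among them. Leaving out stromal cells removed no monocyte-like cell. The 159 are thus not read as a measure of stability. Depth limits S100a9 most, at 429 non-diabetic UMIs. No paired analysis was possible because each group is 1 library, and no replicate could be left out.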

Other observations

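Neutrophil granule and antimicrobial genes did not move as 1 group with S100a8. Of 11 listed, 7 were measured, 4 called higher in the diabetic library and 3 lower, with a median log2 ratio of 2.02, against 18.7% and 12.9% of all measured genes and a median of 0.12. Within the monocyte-like cluster 5 were measured, 1 called higher (Lcn2, 2.08-fold) and 1 lower (Padi4, 48 and 2 UMIs), with a median of -0.20. There Mmp8 was 1.36-fold higher, Wfdc21 was at a ratio of 0.871 and Chil3 at 0.797. Mmp9, a gelatinase, was at 1.81 and 130 CPM (71.9-fold higher), Wfdc21 at 21.8 and 541 CPM (24.8-fold), Lcn2 at 33.0 and 520 CPM (15.7-fold) and Mmp8, a collagenase, at 47.2 and 192 CPM (4.06-fold). Chil3, a chitinase-like protein of alternatively activated macrophages, was at 1389 and 404 CPM (ratio 0.291), Mpo had 21 and 13 UMIs and Padi4, which citrullinates histones, 156 and 8 UMIs. Lcn2 (2465 CPM) and Wfdc21 (1542 CPM) were high in the Stfa3-led cells, where Mmp9 was at 204 CPM. In the Slc9b2-led cells Mmp9 was at 955 CPM, Lcn2 at 2.50 and Wfdc21 at 1.25 CPM. The granule genes Camp, Ngp and Elane, made in neutrophil precursors, had at most 6 UMIs in either library.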
